A study of Mus musculus with 6 samples.

Results

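Beta-defensins are small secreted cationic peptides whose fold is held by disulphide bonds between 6 conserved cysteines. They kill bacteria and draw in immune cells at epithelial surfaces. Many of their genes sit in tandem clusters and are transcribed in the epithelium of the epididymis, the duct in which sperm mature and are stored, and several of the peptides coat the sperm surface there.

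The beta-defensin genes were taken as every row of the gene tables whose symbol starts with Defb and a digit, whether or not it had a count, which gave 43 of 23229 annotated gene rows. The study sequenced RNA of purified sperm nuclei and of whole sperm, to see which sperm transcripts stay with the nucleus. Both groups came from adult, 4-month-old mice of the C57BL/6 transgenic line HP3.1, and sperm were taken from the cauda epididymis and vas deferens of individual animals. The nuclei group had 2 libraries (nuclei 1 and nuclei 2), made from sonicated sperm spun through sucrose and caesium chloride cushions with the detergent Triton X-100. The whole-sperm group had 1 library, made without sonication or ultracentrifugation. The labels do not say which animal gave which library, what the HP3.1 transgene carries, or whether the nuclei libraries came from separate animals, so the spread between them may be technical. The tables of genes and regions held 5487306 reads for nuclei 1, 6648848 for nuclei 2 and 8316345 for whole sperm, with 13897, 12259 and 14630 annotated genes counted. All 14 sperm and spermatid markers had counts in every library, including the protamine gene Prm2 with 3104 and 2874 counts in nuclei, against 2764 in whole sperm.

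Because the peptides are defined by their cysteine pattern, the coding sequences of the 6 members with the most whole-sperm counts are shown, together with Defb40, the most counted member of a further cluster. They run 5′ to 3′ on the coding strand, from GENCODE vM21 on build mm10, and capitals mark the 6 cysteine codons (TGC or TGT) of the beta-defensin core.
Defb43 (14:63011771-63018088, plus strand): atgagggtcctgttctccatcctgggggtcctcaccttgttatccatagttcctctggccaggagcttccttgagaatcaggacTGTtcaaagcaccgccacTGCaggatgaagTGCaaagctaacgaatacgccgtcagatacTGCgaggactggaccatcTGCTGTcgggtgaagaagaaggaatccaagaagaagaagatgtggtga
Defb11 (8:21905376-21906412, minus strand): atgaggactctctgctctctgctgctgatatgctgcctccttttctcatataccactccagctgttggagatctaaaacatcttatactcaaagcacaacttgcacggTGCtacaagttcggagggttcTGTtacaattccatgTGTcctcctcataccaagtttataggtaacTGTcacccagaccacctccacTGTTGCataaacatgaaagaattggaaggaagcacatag
Defb42 (14:63046991-63058149, plus strand): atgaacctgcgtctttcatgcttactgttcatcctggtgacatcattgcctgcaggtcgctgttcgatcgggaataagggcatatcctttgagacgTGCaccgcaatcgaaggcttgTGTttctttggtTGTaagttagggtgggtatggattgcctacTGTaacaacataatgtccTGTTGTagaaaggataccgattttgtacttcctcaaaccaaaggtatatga
Defb28 (2:152518255-152521447, plus strand): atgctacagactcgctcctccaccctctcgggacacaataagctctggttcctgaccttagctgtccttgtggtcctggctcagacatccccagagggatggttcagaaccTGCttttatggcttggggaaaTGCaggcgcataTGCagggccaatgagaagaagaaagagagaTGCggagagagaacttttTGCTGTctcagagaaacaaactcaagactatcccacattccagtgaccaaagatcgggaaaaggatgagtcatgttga
Defb2 (8:21839926-21843482, plus strand): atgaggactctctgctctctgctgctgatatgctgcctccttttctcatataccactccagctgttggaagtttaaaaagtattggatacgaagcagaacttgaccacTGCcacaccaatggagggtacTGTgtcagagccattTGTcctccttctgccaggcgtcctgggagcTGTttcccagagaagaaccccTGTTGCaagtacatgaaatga
Defb48 (14:62977524-62984510, minus strand): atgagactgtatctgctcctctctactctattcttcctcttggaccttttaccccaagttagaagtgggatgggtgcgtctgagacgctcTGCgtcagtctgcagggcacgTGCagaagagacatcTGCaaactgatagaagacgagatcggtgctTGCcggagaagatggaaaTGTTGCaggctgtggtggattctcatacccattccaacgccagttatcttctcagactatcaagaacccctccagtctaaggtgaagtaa
Defb40 (8:18974940-18978256, minus strand): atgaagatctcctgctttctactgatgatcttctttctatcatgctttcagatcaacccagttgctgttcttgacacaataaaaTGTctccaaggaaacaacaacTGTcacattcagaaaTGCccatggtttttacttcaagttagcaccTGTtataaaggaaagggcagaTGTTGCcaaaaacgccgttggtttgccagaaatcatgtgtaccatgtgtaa

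Of the 43 members, 42 had a coding sequence, the exception being the pseudogene Defb44-ps. Coding sequences held 57 to 186 codons (median 72), and all 42 encoded more basic than acidic residues. A run of 6 cysteine codons with the last 2 adjacent, at any spacing, was found in 41, the exception being Defb8. In 33 of the 41 the cysteines were separated by 6, then 3 or 4, then 9, then 4 to 6, then 0 residues. Defb43 lay outside this pattern with 5 in its first gap. So did Defb5, whose run was counted from the latter of a pair of adjacent cysteine codons, and from the former it would meet the pattern. The gaps were 2, 10, 3, 16 and 0 in Defb46 and 28, 11, 9, 6 and 0 in Defb50. These runs are therefore not cores of the usual form. Defb2 and Defb11 open with the same signal peptide codons, as the printed sequences show, and 20.7% of the 50-base windows of the Defb2 transcript occurred in Defb9, Defb10 or Defb11. The share was 19.8% for Defb11, 16.9% for Defb10 and 9.96% for Defb9. A read lying wholly in shared sequence cannot be assigned to a single gene. The read length is not given in the sources used here, so how far the counts of these 4 genes are affected is not known. In all, 9 members shared windows with another gene; the others were Defb12, Defb35, Defb4, Defb8 and Defb15, and none of them had more than 20 counts in a library.

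Whole sperm held most of the beta-defensin reads. The family had 623 counts in nuclei 1 and 1437 in nuclei 2; whole sperm had 4974. As a share of all gene and region counts that was 0.0114% for nuclei 1 (95% exact Clopper-Pearson interval 0.0105 to 0.0123), 0.0216% for nuclei 2 (0.0205 to 0.0228) and 0.0598% for whole sperm (0.0582 to 0.0615). The nuclei shares averaged 0.0165% ± 0.00725 (SD, n = 2), and they were 0.190 and 0.361 of the whole-sperm share. Both nuclei libraries lay below whole sperm, and the distance between them was smaller than the distance of either from whole sperm. With 1 whole-sperm library the summed share has no test, and the intervals cover counting error only. In bulk RNA, fewer cells of a type and less RNA per cell cannot be told apart.

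A few genes carried the family. In nuclei 1 the leading 5 were Defb43, Defb42, Defb28, Defb30 and Defb2, with 71.3% of its counts, and in nuclei 2 they were Defb28, Defb42, Defb2, Defb30 and Defb43, with 91.3%. In whole sperm, Defb43, Defb11, Defb42, Defb28 and Defb2 made up 81.7%. Defb30 was thus among the first 5 in both nuclei libraries and not in whole sperm, and Defb11 was among them in whole sperm and in neither nuclei library. Nuclei 1 had counts for 17 members, nuclei 2 for 12 and whole sperm for 19. The 11 counted in all 3 libraries were Defb2, Defb9, Defb11, Defb28, Defb30, Defb33, Defb37, Defb40, Defb42, Defb43 and Defb48. In nuclei alone there were 3 (Defb14, Defb21 and Defb35), and in whole sperm alone 5 (Defb10, Defb12, Defb13, Defb38 and Defb47). The nuclei libraries did not hold the same members: Defb1, Defb14, Defb21, Defb22 and Defb39 were counted in nuclei 1 and had 0 counts in nuclei 2, whereas all 12 members of nuclei 2 were counted in nuclei 1. A gene with 0 counts may be present below 3 counts, which is 0.572 and 0.450 CPM in the nuclei libraries and 0.346 CPM in whole sperm (CPM, counts scaled to a common library total with TMM factors).

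No count was found in any library for 21 members, or 48.8%, against 26.4% of all annotated genes. They were Defb3, Defb4, Defb5, Defb6, Defb7, Defb8, Defb15, Defb18, Defb19, Defb20, Defb23, Defb25, Defb26, Defb29, Defb34, Defb36, Defb41, Defb44-ps, Defb45, Defb46 and Defb50. Their transcripts were 174 to 690 bases long (median 345), and those of the 22 counted members 204 to 1003 bases (median 393). The uncounted members were not detectable at this depth.

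**Figure D1:**
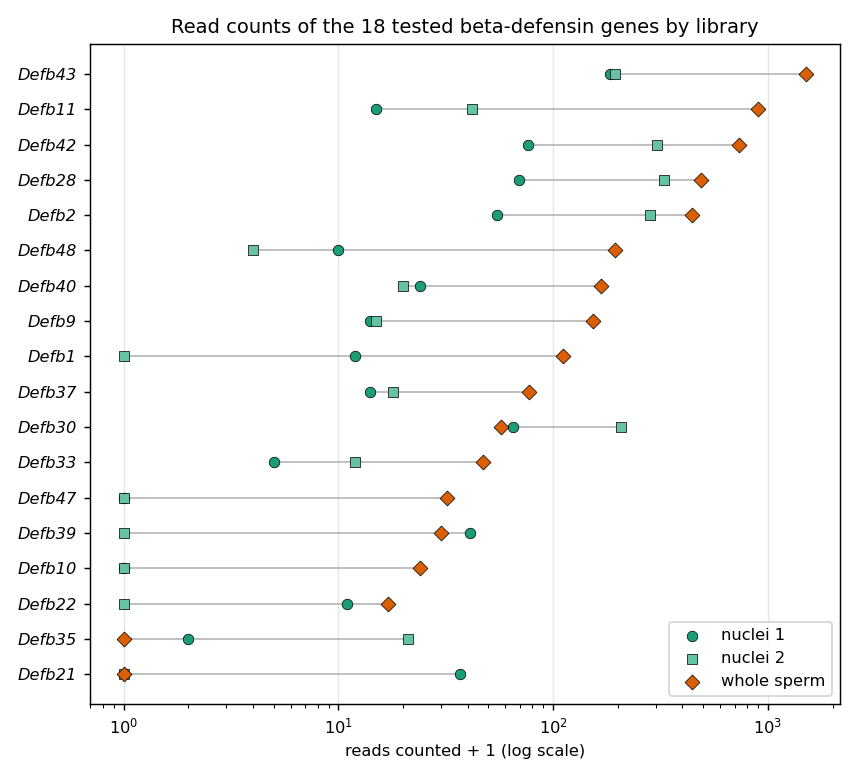
Read counts plus 1 (log scale) of the 18 beta-defensin genes with at least 10 counts in a library, ordered by whole-sperm counts. Circles are nuclei 1, squares nuclei 2 and diamonds whole sperm; a point at 1 is a count of 0, and where both nuclei libraries had 0 their symbols coincide. Defb43 has 183 and 194 counts in nuclei, against 1509 in whole sperm, whereas Defb30 has 64 and 205 in nuclei and 56 in whole sperm.

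Per gene, the nuclei libraries were compared with whole sperm in a single edgeR quasi-likelihood fit over 16720 genes and assembled regions, with p-values adjusted by the Benjamini-Hochberg method and called below 0.05. Of the 18 beta-defensin genes tested, 0 were called lower and 0 higher in nuclei; the same fit called 0.0957% of all features lower and 0.0658% higher. At an unadjusted p under 0.05, 2 members (Defb11 and Defb43) were lower and 0 higher, against 2.07% of all features lower. DESeq2 called 1 member lower (Defb11, adjusted p = 0.0312), against 0.529% of the features to which it gave an adjusted p. With limma on RPKM 0 members were called, but it also called 0 of all genes in either direction. Its 0 calls here, and for the gene lists below, therefore say nothing about the genes concerned. Scaling edgeR by the spike-in RNAs called 2 lower, Defb11 (adjusted p = 8.80e-06) and Defb43 (adjusted p = 2.54e-04), against 3.26% of all features, and moved the median log2 of all features to -1.16. Both nuclei libraries lay below whole sperm for 13 of the 18, where 36.8% of all features did, and above it for 2, where 26.7% of all features did. The groups overlapped for Defb21, Defb22 and Defb39. Fitted log2 fold changes, nuclei over whole sperm, were below 0 for 14 members and had a median of -1.96, whereas the median of all features was 0.27 and 45.6% of them lay below 0. With nuclei 2 alone the median was -3.04 over 20 members and -0.53 over all features. With nuclei 1 alone it was -2.38 over 22 members and 0.06 over all features. These medians took every feature with a count, without the filter behind the 18. Of the members in them, 12 had a count in nuclei 2 and 17 in nuclei 1, and values of the others depend on the prior count. The summed share ran in the other order, at 0.361 of whole sperm in nuclei 2 and 0.190 in nuclei 1. The 18 are not all members: a gene is tested only if some library counts it. Defb10 and Defb47, which are among the 13 and the 14, had counts in whole sperm alone. Defb21 and Defb35 had counts in nuclei alone. The sign of the fold change of these members was fixed by where they were counted.

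Defb43, on chromosome 14, was the most abundant beta-defensin gene in whole sperm. It had 183 and 194 counts in nuclei, against 1509 in whole sperm. Both nuclei libraries were low and close to each other. Its level was 34.9 and 29.1 CPM in nuclei (32.0 ± 4.13, SD, n = 2) and 174 CPM in whole sperm, 5.45-fold lower in nuclei (log2 -2.44 ± 0.84 SE, edgeR adjusted p = 0.346). Per length it stood at 32.5 and 30.4 RPKM in nuclei (reads per kilobase, scaled to the read total, as deposited). In whole sperm it had 213 RPKM and ranked 43rd of 23226 annotated genes. The deposited RPKM were not a fixed multiple of the counts. Relative to whole sperm, RPKM per count ran from 0.528 (Defb30) to 1.45 (Defb39) in nuclei 1. In nuclei 2 it ran from 0.654 (Defb30) to 1.32 (Defb33), over members with at least 10 counts in both libraries compared.

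Defb11, in the chromosome 8 cluster, had the next highest whole-sperm level. It had 14 and 41 counts in nuclei, against 897 in whole sperm. That is 2.67 and 6.15 CPM in nuclei (4.41 ± 2.46, SD, n = 2), against 104 CPM in whole sperm, 23.5-fold lower (log2 -4.54 ± 1.17 SE, edgeR adjusted p = 0.0589). Per length the values were 2.49 and 6.40 RPKM in nuclei, against 197 RPKM in whole sperm. From nuclei 1 alone its log2 fold change was -5.21 and from nuclei 2 alone -4.07. Defb11 is one of the genes whose reads may be shared with Defb2, Defb9 and Defb10.

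Defb42, Defb28 and Defb2 showed a different arrangement, in which nuclei 2 lay nearer to whole sperm and nuclei 1 well below both. Defb42, whose gene overlaps Defb30, had 75 and 303 counts in nuclei, against 729 in whole sperm, or 14.3 and 45.4 CPM in nuclei, against 84.2 CPM in whole sperm (log2 -1.49 ± 0.98 SE, edgeR adjusted p = 0.909). Defb28, on chromosome 2, had 68 and 327 counts in nuclei, against 487 in whole sperm, or 13.0 and 49.0 CPM in nuclei, against 56.2 CPM in whole sperm (log2 -0.86 ± 1.10 SE, edgeR adjusted p = 0.917). Defb2, a gene induced in mouse airways by bacterial lipopolysaccharide, had 54 and 283 counts in nuclei, against 441 in whole sperm, or 10.3 and 42.4 CPM in nuclei, against 50.9 CPM in whole sperm (log2 -0.95 ± 1.16 SE, edgeR adjusted p = 0.909). For none of these 3 genes did the difference between the fractions pass the test. From nuclei 1 alone their log2 fold changes were -2.50 for Defb42, -2.06 for Defb28 and -2.24 for Defb2, and from nuclei 2 alone they were -0.89, -0.20 and -0.26 in the same order.

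The nuclei libraries also differed from each other. Among the 12 members counted in both, nuclei 2 was above nuclei 1 in CPM for 8, with a median log2 difference of 1.16. Over all 17 members counted in nuclei, nuclei 2 was higher for 8 and nuclei 1 for 9. Defb43 ran the other way, with a log2 difference of -0.26, as did Defb9, Defb40 and Defb48. The ratio of Defb42 to Defb43 counts was 0.410 for nuclei 1, 1.56 for nuclei 2 and 0.483 for whole sperm. In RPKM the ratio was 0.284 for nuclei 1, 1.19 for nuclei 2 and 0.448 for whole sperm. Nuclei 1 was thus nearer to whole sperm than nuclei 2 was by either measure, and less closely in RPKM than in counts. Defb42 and Defb43 belong to the same cluster.

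Defb48 and Defb47 lie at the other end of that cluster. Defb48 had 9 and 3 counts in nuclei, against 193 in whole sperm, 20.6-fold lower in nuclei (log2 -4.35 ± 3.33 SE, edgeR adjusted p = 0.909). Defb47 had 0 counts in both nuclei libraries and 31 in whole sperm, at least 7.0-fold lower against a floor of 3 counts per library. Both genes had whole-sperm levels well above those of nuclei, and neither difference passed the test.

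Defb30 was the one member counted in all 3 libraries with both nuclei values above whole sperm. It had 64 and 205 counts in nuclei, against 56 in whole sperm, or 12.2 and 30.7 CPM in nuclei, against 6.47 CPM in whole sperm, 3.32-fold higher (log2 1.73 ± 2.15 SE, edgeR adjusted p = 0.911). In RPKM the groups overlapped, with 2.63 and 10.4 in nuclei and 4.35 in whole sperm. The log2 difference on the log2(RPKM + 0.1) scale was 0.27 (limma adjusted p = 0.922). RPKM per count of Defb30 was 0.528 of the whole-sperm value in nuclei 1 and 0.654 in nuclei 2. The reason for this mismatch was not tested. The Defb30 gene (14:63034087-63049960, minus strand) overlaps Defb42 on the other strand. This overlap is between whole gene spans, introns included. Whether the counting used strand is not given in the sources used here, so how reads in the overlap were assigned is not known.

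The remaining tested members were sparser. Defb40 had 23 and 19 counts in nuclei, against 166 in whole sperm (5.30-fold lower, log2 -2.40 ± 3.02 SE), and Defb37, from the same chromosome 8 cluster, had 13 and 17 in nuclei and 76 in whole sperm (log2 -1.80 ± 4.45 SE). Defb9 had 13 and 14 counts in nuclei, against 153 in whole sperm (7.72-fold lower, log2 -2.94 ± 3.43 SE). For these 3 genes the nuclei libraries were close together and below whole sperm. Defb1, the mouse counterpart of the human gene DEFB1 that is made in kidney and many epithelia, had 11 and 0 counts in nuclei, against 110 in whole sperm. Defb33 had 4 and 11 counts in nuclei, against 46 in whole sperm, and Defb10 had 0 in both nuclei libraries and 23 in whole sperm (at least 5.20-fold lower). The edgeR adjusted p-values of these 6 genes were 0.909 to 0.995.

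A last set of members was counted in one nuclei library only, or nearly so. Defb39 had 40 and 0 counts in nuclei, against 29 in whole sperm. Defb22, whose human counterpart DEFB126 encodes a coat protein of sperm, had 10 and 0 counts in nuclei, against 16 in whole sperm. Defb21 had 36 and 0 counts in nuclei, against 0 in whole sperm. For these genes the nuclei values lay on both sides of whole sperm or reached it at 0, so the direction depended on the library. Defb35 had 1 and 20 counts in nuclei, against 0 in whole sperm. The 4 counted members that were not tested had at most 8 counts in a library: Defb12 (0 and 0 in nuclei, 3 in whole sperm), Defb13 (0 and 0, 8), Defb14 (5 and 0, 0) and Defb38 (0 and 0, 1).

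**Figure D2:**
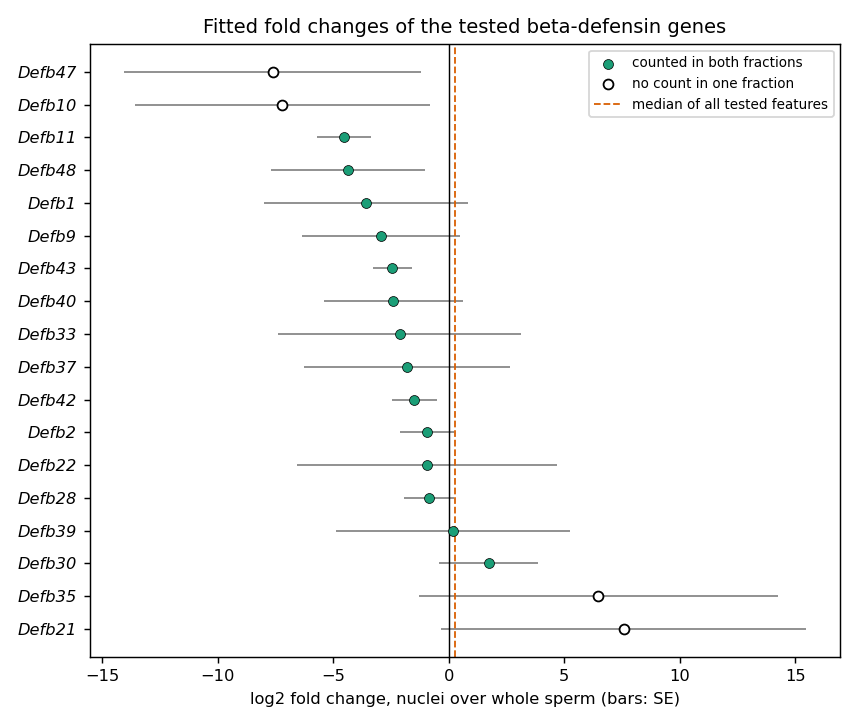
Log2 fold change of each tested beta-defensin gene, nuclei over whole sperm, from the edgeR fit, with bars of 1 SE; filled points have counts in both fractions, and open points have none in one of them, so their fitted value depends on the prior count. The dashed line marks the median of all 16720 features (0.27), and 14 of the 18 members lie below 0.

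The members fell into 6 groups on the chromosomes when neighbours within 500 kb were joined, and the groups were not equally counted. On chromosome 14 (14:62977524-63058149), all 5 genes, in the order Defb48, Defb47, Defb43, Defb30 and Defb42, had counts. Together they held 331 and 705 counts in nuclei, against 2518 in whole sperm, which was 53.1% and 49.1% of the family in nuclei and 50.6% in whole sperm. Their share of the family thus stayed near the same level in the 3 libraries, while the summed level was 0.217 of whole sperm in nuclei 1 and 0.363 in nuclei 2 (63.2 and 106 CPM in nuclei, 291 CPM in whole sperm).

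The distal chromosome 8 group (8:21776599-21948850) holds the 9 genes Defb1, Defb50, Defb2, Defb10, Defb9, Defb11, Defb15, Defb35 and Defb13, the block whose deletion in mice is known to leave males infertile. In it 7 genes were counted, with 93 and 358 counts in nuclei, against 1632 in whole sperm. Its part of the family was 14.9% and 24.9% in nuclei and 32.8% in whole sperm, and its summed level was 0.0942 of whole sperm in nuclei 1 and 0.285 in nuclei 2. Defb11 and Defb2 made up most of it. The proximal chromosome 8 group (8:18974940-19497775) has 14 genes, of which 6 were counted, with 81 and 36 counts in nuclei, against 275 in whole sperm. Its summed CPM was 0.487 of whole sperm in nuclei 1 and 0.170 in nuclei 2, the reverse order of the distal group. Much of that gap came from Defb39, with 40 counts in nuclei 1 and 0 in nuclei 2. Defb14 had 5 and 0, whereas Defb40 had 23 and 19 and Defb37 had 13 and 17. All but Defb14 of its counted genes lie at the end that begins with Defb40, and its last 7 genes, Defb4 to Defb7, had none.

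On chromosome 2 (2:152459055-152623053), 3 of 11 genes were counted, with 114 and 327 counts in nuclei, against 503 in whole sperm. Defb28 gave 68 and 327 of them in nuclei and 487 in whole sperm, and the rest came from Defb21 and Defb22. The summed level was 0.374 of whole sperm in nuclei 1 and 0.844 in nuclei 2, at 21.8 and 49.0 CPM in nuclei, against 58.1 CPM in whole sperm. The 3 members on chromosome 1 (Defb44-ps, Defb18 and Defb41) had no counts, and Defb33 stood alone between the chromosome 8 groups. No test was made between groups of genes, since members of a cluster are not replicates.

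**Figure D3:**
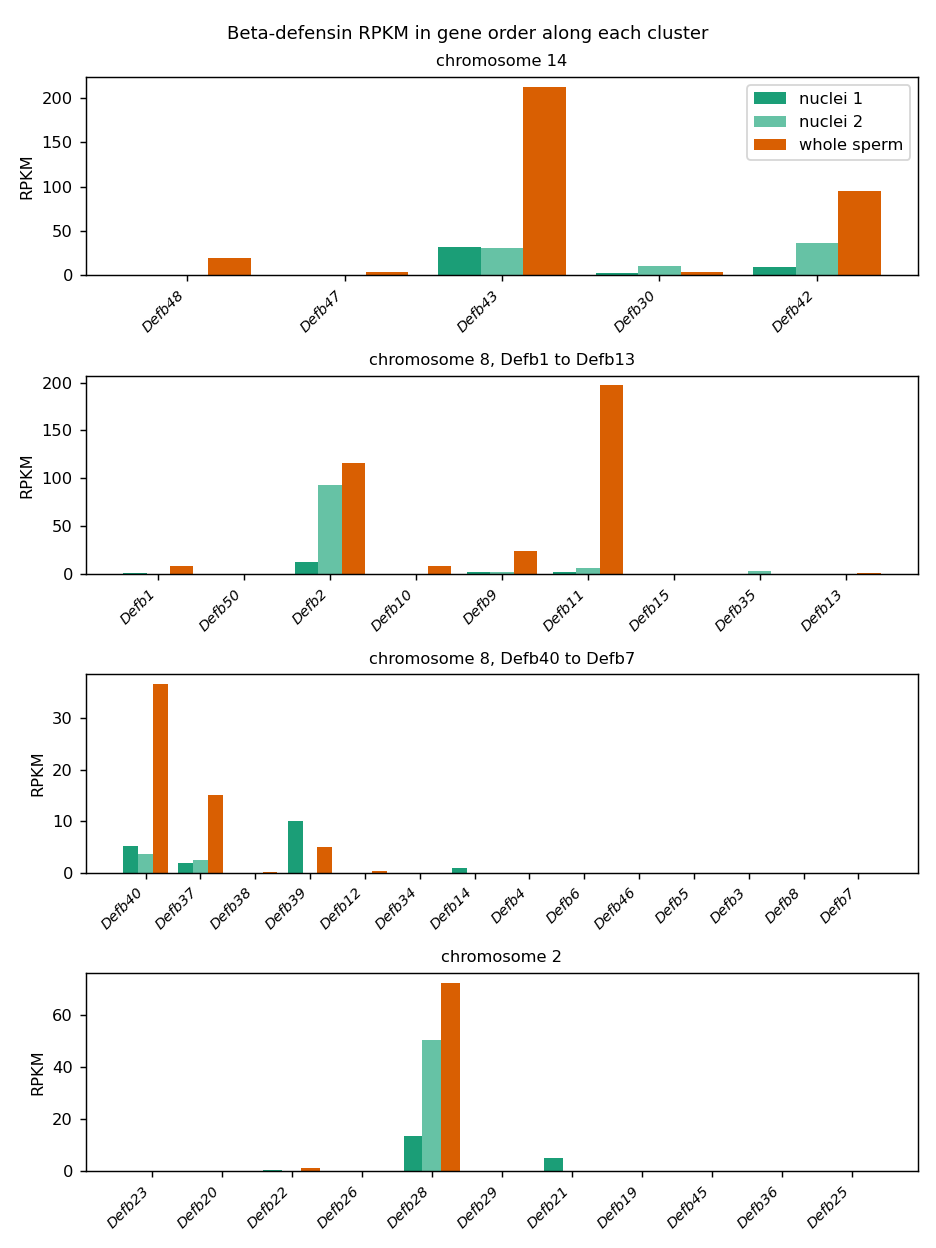
RPKM of the beta-defensin genes in chromosome order within the 4 clusters of more than 1 gene that had counts, each panel with its own axis from 0; bars are nuclei 1, nuclei 2 and whole sperm. Whole-sperm levels reach 213 RPKM at Defb43 and 197 RPKM at Defb11, Defb28 is the main gene of chromosome 2, and runs of neighbouring genes have no bar.

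The authors also assembled transcribed regions outside annotated genes, and 3 of them lie inside beta-defensin clusters. Between Defb48 and Defb47, region TCONS_00012645 (14:62990140-62990524) had 6 and 0 counts in nuclei, against 215 in whole sperm (43.4-fold lower, log2 -5.42 ± 3.32 SE, edgeR adjusted p = 0.909). Its neighbour TCONS_00012646 (14:62991517-62991911) had 0 and 0 counts in nuclei, against 180 in whole sperm, at least 40.7-fold lower (edgeR adjusted p = 0.725). Each had about as many whole-sperm reads as Defb48 and more than Defb47. Between Defb9 and Defb11, TCONS_00039990 (8:21901287-21901587) had 0 and 0 counts in nuclei, against 41 in whole sperm, at least 9.26-fold lower. None of the 3 overlaps an annotated gene, and all 3 had fewer counts in both nuclei libraries than in whole sperm. With spike-in scaling the edgeR adjusted p was 0.0865 for TCONS_00012645, 0.0242 for TCONS_00012646 and 0.634 for TCONS_00039990.

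The cysteine spacing and the promoters were set beside the counts as a description. Among the 33 members with the common spacing, all 11 with 4 residues in the second gap had a count in some library (Defb1, Defb2, Defb10, Defb11, Defb14, Defb37, Defb38, Defb39, Defb40, Defb47 and Defb48). Of the 22 with 3 residues there, 8 had one. This split was noticed after the counts were seen, 3 of the 11 (Defb2, Defb10 and Defb11) share sequence, and it was not tested.

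RefSeq promoters (250 bases before to 50 after the start, build GRCm38.p6) were matched for 29 members. The hexamer AGAACA, part of the element bound by steroid hormone receptors such as the glucocorticoid receptor, was searched on both strands, since steroid hormones maintain many epididymal genes. It occurred in 18 of the 29 genes, against 19% of 32851 promoters of the same length. Some promoters are near copies around the hexamer, such as those of Defb3, Defb8 and Defb46, and of Defb10 and Defb11. The 18 are therefore not independent. The hexamer was in 8 of the 15 counted and 10 of the 14 uncounted members with a promoter, so it was not more frequent among the counted ones. TATAAA was in 5 members (13.6% of all promoters), and CCGGAAG, a core bound by ETS factors, in 0 (8.86% of all promoters). Members' promoters had a median G+C of 48.3%, against 52.7% for all. The 100 bases before the start are shown for 3 genes of the chromosome 14 cluster that differ in these motifs, with AGAACA (or its reverse complement TGTTCT) and TATAAA in capitals.
Defb43 (14:63011671-63011770, plus strand): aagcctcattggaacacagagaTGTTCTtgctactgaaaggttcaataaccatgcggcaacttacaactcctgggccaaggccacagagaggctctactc
Defb48 (14:62984511-62984610, minus strand): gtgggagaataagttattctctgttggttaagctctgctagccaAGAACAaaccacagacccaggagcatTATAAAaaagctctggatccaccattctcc
Defb42 (14:63046891-63046990, plus strand): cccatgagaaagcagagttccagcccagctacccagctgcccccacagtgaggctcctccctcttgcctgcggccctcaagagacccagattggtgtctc
Defb43 and Defb48 have the hexamer, and Defb42, with 729 whole-sperm counts, has neither motif in the 300 bases. A match of letters is not evidence that a factor binds there.

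Related genes were followed in the same fit. Spag11a, a defensin-like epididymal gene of the chromosome 8 region, had 0 and 0 counts in nuclei, against 47 in whole sperm, and Spag11b had none. The 15 alpha-defensin rows, genes of neutrophil and intestinal peptides in mammals, had 0 counts in every library. Of 32 other secreted antimicrobial genes, 18 had a count and 14 were tested. With edgeR 0 were called in either direction, and DESeq2 and limma also called 0. At an unadjusted p under 0.05, 2 were lower and 0 higher, against 2.07% of all features lower. Of the 14 tested, 12 lay below 0 with a median log2 of -2.09, where 45.6% of all features lay below 0. Wfdc15b, a whey acidic protein family gene, had 413 and 416 counts in nuclei, against 2460 in whole sperm (log2 -2.01 ± 0.74 SE, edgeR adjusted p = 0.436). Ltf, which encodes the iron-binding protein lactoferrin, had 168 and 150 counts in nuclei, against 1174 in whole sperm (log2 -2.31 ± 0.89 SE, edgeR adjusted p = 0.476). Lyz1, a lysozyme gene, had 6 and 4 counts in nuclei, against 156 in whole sperm.

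Receptors that bind defensins were scarce. The 8 genes had 91 and 139 counts in nuclei, against 43 in whole sperm. Ccr6, the chemokine receptor through which beta-defensins attract dendritic cells and which has been described on human sperm, had 0 and 110 counts in nuclei, against 0 in whole sperm, so all its reads came from nuclei 2. Of 4 receptors tested edgeR called 0, with 0 at an unadjusted p under 0.05, and DESeq2 and limma called 0. Of the 15 genes listed as regulators of epididymal gene expression, 12 were tested and edgeR called 0. There were 0 at an unadjusted p under 0.05 and 0 by DESeq2 and limma. Their median log2 was -0.15, with 6 of the 12 below 0.

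Summed over each list, markers of epithelial cells also took lower shares in nuclei. The 27 markers of epididymal and vas deferens epithelium took 0.263% and 0.278% of counts in nuclei and 1.79% in whole sperm, 0.147 and 0.155 of the whole-sperm share. Of these, 16 were tested and 13 lay below 0 (median log2 -2.44), where 45.6% of all features did. The exceptions were Crisp4, Adam28 and Lcn12. The edgeR fit called 2 lower, the secretory genes Crisp1 and Spink10, and 0 higher, against 0.0957% of all features called lower. At an unadjusted p under 0.05, 6 were lower and 0 higher, against 2.07% of all features lower. DESeq2 called 6 lower and 0 higher, against 0.529% of features called lower, and limma called 0, as it did over all genes. Crisp1 and Akr1b7 gave 55869 and 48143 of the 148777 whole-sperm counts of the list, so its shares describe mainly these genes. Lcn5, Lcn6, Lcn8, Lcn10, Cst12, Rnase10, Rnase13 and Spint4, secretory genes of the epididymis, were at 0 in every library. Svs2, a seminal vesicle gene in the list, had 0 and 0 counts in nuclei, against 142 in whole sperm. General epithelial markers took 0.0144% and 0.0194% in nuclei and 0.0674% in whole sperm, and edgeR called 1 of 12, Cldn8, lower. Of the 12, 9 lay below 0 (median log2 -1.44). The exceptions were Krt7 (log2 1.52), Elf3 (log2 2.25) and Cldn3 (log2 0.17), for which the nuclei libraries lay on both sides of whole sperm.

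Leukocyte markers were at 0.00390% and 0.00129% in nuclei and 0.00578% in whole sperm, and smooth muscle and stroma markers at 0.0160% and 0.00952% in nuclei and 0.0156% in whole sperm. The 8 genes listed for Sertoli and Leydig cells took 0.00643% and 0.0102% in nuclei and 0.0215% in whole sperm. Clu gave 208 of their 353 counts in nuclei 1, 630 of 677 in nuclei 2 and 1604 of 1790 in whole sperm. These shares therefore describe mainly Clu and not the level of either cell type. Amh, Insl3, Star and Hsd3b1 had 0 counts in every library, and Cyp17a1 had 1, in nuclei 1. The summed share of sperm and spermatid markers ran the other way, at 0.550% and 0.545% in nuclei and 0.323% in whole sperm (median log2 0.91). Of these, edgeR called 0 of 14, with 1 higher at an unadjusted p under 0.05 and 1 higher by DESeq2. Not all members went this way: 2 of the 14, Smcp (log2 -0.52) and Spata18 (log2 -0.24), were below whole sperm in both nuclei libraries. For Akap4 and Hils1 the nuclei libraries lay on both sides of whole sperm. Tnp1 and Tnp2 gave 7602 and 5407 of the 30154 counts in nuclei 1. The beta-defensin share and the epididymal marker share were both lower in nuclei, and the part of epithelial RNA in the beta-defensin values was not tested. Between the nuclei libraries, the share in nuclei 2 was 1.90 times that in nuclei 1 for the beta-defensin genes and 1.06 times for the epididymal markers.

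**Figure D4:**
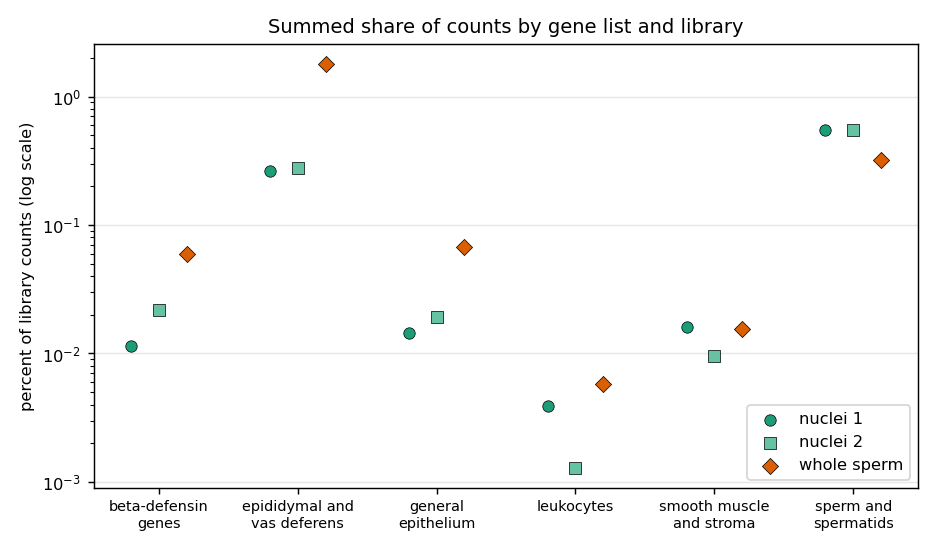
Summed share of library counts (percent, log scale) of the beta-defensin genes and of 5 marker lists in nuclei 1 (circles), nuclei 2 (squares) and whole sperm (diamonds). Beta-defensin genes and epididymal, vas deferens and general epithelial markers have lower shares in both nuclei libraries than in whole sperm, and sperm and spermatid markers have higher ones.

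The authors' deposited whole-sperm values, adjusted by taking away the mean of both nuclei counts, kept 4057 of the 4974 beta-defensin counts, or 81.6%, against 40.8% over all rows. Defb43 kept 1321 and Defb11 870 of their counts, and Defb30 and the genes at 0 in whole sperm were listed at 0. The family's RPKM summed to 101.5 and 240.6 in the nuclei libraries and 827.6 in whole sperm.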

How the data were processed

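RNA-seq of 2 sperm nuclei preparations and 1 whole-sperm preparation was analysed from the tables that the authors deposited; the labels list 6 samples (3 preparations, each run 2 times), and each table was treated as holding both runs of its preparation. Values are whole-number read counts per gene or assembled region, deposited by the authors without normalization. The table of RPKM, deposited by the authors, was used for levels per length, and their adjusted whole-sperm column was handled as a score, since all 25610 rows deposited by the authors equal the whole-sperm count less the mean nuclei count, not below 0, within 0.5. Per the submitters' processing notes, the build was mm10, and the tools were TopHat2 2.0.12, CASAVA 1.8.2, HTSeq, bedtools, SAMtools 0.1.19, DESeq2 and Cufflinks 2.1.1. What each tool did, and whether strand was used in counting, is not given in the sources used here.

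Counts were fitted with edgeR 4.0.16 (R 4.3.3; filterByExpr, TMM, quasi-likelihood test) over 14397 genes and 2323 regions. The fit has 1 residual degree of freedom, a common biological coefficient of variation of 1.30, and infinite prior degrees of freedom, so p-values come from 1 spread shared by all features, and whole sperm, with its single library, is assumed to share it. The standard error was derived from the F statistic. Levels are in CPM with TMM factors, with mean ± SD for nuclei. A group at 0 was set to 3 counts per library for bounds; intervals and floors cover counting error only. Reads outside features (34.4% of the whole-sperm file) and ambiguous reads (1.97%) stayed out. Alternatives were DESeq2 1.42.0 and its size factors, library size alone, scaling by the 23 shared ERCC spike-ins (synthetic RNAs, equal amounts assumed), a minimum mean of 10 CPM, no filter, limma 3.58.1 on log2(RPKM + 0.1) and log2(RPKM + 1), and each nuclei library left out. Positions, overlaps and coding sequences come from GENCODE vM21 (the assembly of build mm10), where all 43 members were matched through RefSeq accessions; no protein sequence was used, and coding sequences stand in its place. Promoters come from RefSeq. Values are given for every member tested or with at least 10 counts in a library. The members and gene lists were chosen with earlier results of these data known. A gene of the regulator list is not reported here by name.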

Additional observations from a re-analysis of the deposited data

How the results depend on the processing

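No beta-defensin gene was called higher under any alternative. Lower calls numbered 2 with spike-in scaling and 1 with DESeq2, against 0 with edgeR and TMM factors; spike-in scaling also moved the median log2 of all features to -1.16, from 0.27, and that of the members to -3.39. Over all genes edgeR called 4 higher and 16 lower. Library size alone gave 2 higher, spike-in scaling 1 and 527, DESeq2 108 and 40, and a minimum mean of 10 CPM as well as both limma settings 0 and 0. Defb39 turned from 0.19 to -1.23 with spike-in scaling, -2.34 and -0.86 with limma at pseudocounts of 0.1 and 1, and -7.69 without nuclei 1 (1.24 without nuclei 2). Defb22 turned from -0.95 to 0.10 without nuclei 2 (-6.84 without nuclei 1). The family's share in nuclei 1, nuclei 2 and whole sperm was 0.0230%, 0.0363% and 0.129% without the 10 most abundant features, and 0.0724%, 0.136% and 0.389% of summed RPKM; with annotated genes only it was 0.0618% in whole sperm. The nuclei mean ranged from 0.0114% to 0.0216% with either library left out. Numbers of members counted kept within 1.5 times under minimums of 3 or 10 counts, thinning to the smallest library, and RPKM above 0. Among values of single genes, 141 kept their direction and side of the threshold, 18 moved by more than the nuclei spread when a nuclei library was left out, 5 reversed and 3 passed the threshold. The cause of these changes was not tested. No paired analysis was possible because whole sperm had 1 library, and for the same reason calls could not be counted with a nuclei library left out.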
